A study of Mus musculus with 2 samples.

Results

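The receptors for steroid hormones, thyroid hormone and vitamin D were examined in neonatal pituitary stem cells (SCs) and their immediate progeny. The group comprised 8 genes, *Esr1* and *Esr2* (oestrogen receptors α and β), *Pgr* (progesterone receptor), *Nr3c1* (glucocorticoid receptor), *Nr3c2* (mineralocorticoid receptor), *Thra* and *Thrb* (thyroid hormone receptors α and β) and *Vdr* (vitamin D receptor). They were taken by gene symbol from the 31055 features of the count files, and all 8 were present. The data are 2 droplet single-cell libraries of *Sox9iresGFP/+* pituitaries at postnatal day 3, 1 from 3 pooled males and 1 from 3 pooled females, both sorted for SOX9iresGFP+ve cells and both without treatment. Sorting was on GFP, which is more stable than SOX9 itself, and a sorted cell need not still express *Sox9*. There is 1 library per sex, so values have no replicate check, no test was made, and sex, animals, sort and library preparation cannot be told apart. Intervals are exact 95% intervals (Poisson for levels, Clopper-Pearson for shares of cells, conditional binomial for ratios) and cover counting error only.

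These receptors are transcription factors that bind a small hormone and then activate or repress genes with matching response elements. Steroid receptors mostly act as homodimers, whereas thyroid hormone and vitamin D receptors pair with a retinoid X receptor. In the pituitary they carry the feedback from the gonads, adrenal and thyroid onto the cells that secrete the gonadotrophins, ACTH and TSH, and oestrogen receptor α is known from adult lactotrophs and gonadotrophs.

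After the cell filter 10410 male and 5711 female cells remained, with 105883748 and 62830305 unique molecular identifiers (UMIs) and medians of 8902.5 and 9789 UMIs per cell. The libraries shared 18 barcodes among these cells. Cells were put into 6 classes from raw UMIs of marker genes, and the receptors played no part in this. In the order male and female, there were 2883 and 3092 stem-like cells (*Sox2* with *Sox9*, *Aldh1a2* or *Ednrb*), 731 and 542 differentiating-like cells (*Lef1* with *Gadd45g*, *Dll1* or *Shh*), 910 and 142 gonadotroph-like cells (*Cga*), 659 and 257 Pou1f1-lineage-like cells (*Pou1f1*), 260 and 116 melanotroph-like cells (*Pomc* with *Pax7* or *Pcsk2*), and 636 and 310 mesenchymal-like cells (collagens and *Dcn*). No class was given to 4090 male cells, which had a median of 1615.5 UMIs, and to 1202 female cells, with a median of 9248 UMIs. A further 241 male and 50 female cells met the rules of more than 1 class. Of the check markers that no rule used, 4 of 6 were highest in stem-like cells in both libraries, 4 of 4 in differentiating-like, 3 of 5 in gonadotroph-like, 2 of 4 in Pou1f1-lineage-like, 2 of 3 in melanotroph-like and 4 of 4 in mesenchymal-like cells. Relative to 1000000 UMIs of a class, summed UMIs of 4 endothelial markers were at most 6.86 outside the mesenchymal-like cells and reached 35.5 (male) and 48.2 (female) in them, with none of the 4 at 0, and their part in the mesenchymal-like values was not tested. Immune markers summed to at most 3.01 and pituicyte markers to at most 5.09 in any class. Proliferation markers summed to 541 and 452 in stem-like and to 33.2 and 36.4 in differentiating-like cells, and the part of cycling in the folds over stem-like cells was not tested beyond a split of stem-like cells by *Mki67* and *Top2a*.

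A level is given here in CPM, the UMIs of a gene per 1000000 UMIs of the cells of a class in 1 library. It is a 3′ end count and is not scaled to transcript length, and fewer cells with the mRNA and less mRNA per cell are told apart only by the shares of cells. Over all kept cells *Thra* had 12695 male and 7859 female UMIs, *Nr3c1* 6009 and 3579, *Thrb* 1920 and 736, *Pgr* 617 and 399, *Nr3c2* 460 and 205, *Esr1* 391 and 114, *Vdr* 51 and 26, and *Esr2* 7 and 4. A minimum of 50 UMIs in each library was set for calls, which 13946 genes and 6 of the 8 receptors passed, and *Vdr* and *Esr2* did not. A receptor was called in a class where its level was past 2-fold of that in stem-like cells, in the same direction in both libraries. The plot of levels by class shows that the receptors follow separate patterns.

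**Figure D1:**
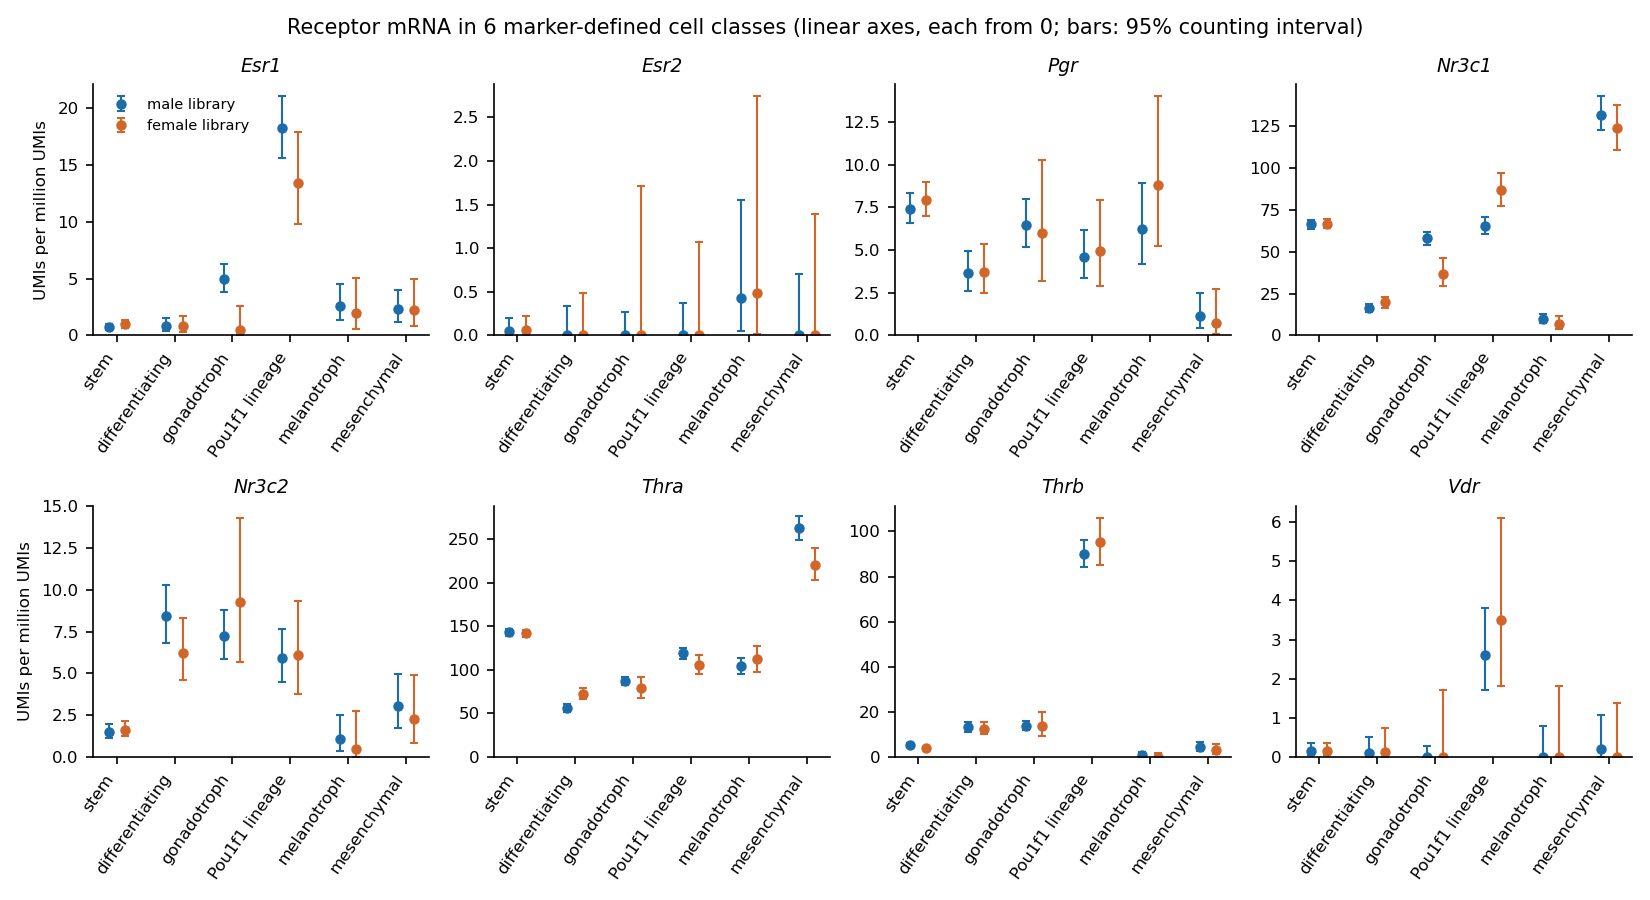
Level of each receptor (CPM, linear axes from 0) in the 6 cell classes of the male (blue) and female (orange) library, with exact 95% Poisson intervals as bars. *Thrb*, *Esr1* and *Vdr* were highest in Pou1f1-lineage-like cells and *Thra* and *Nr3c1* in mesenchymal-like cells of both libraries, while *Esr2* rests on at most 2 UMIs per class.

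In Pou1f1-lineage-like cells, 3 of the 6 receptors passed were called higher than in stem-like cells (*Esr1*, *Nr3c2* and *Thrb*), against 8.45% of all genes, and none lower, against 8.96%. In differentiating-like cells, *Nr3c2* and *Thrb* were called higher (5.77% of all genes) and *Pgr* and *Nr3c1* lower (15.2%). In gonadotroph-like cells, *Nr3c2* and *Thrb* were called higher (9.26% of all genes) and none lower (13.0%). In melanotroph-like cells none was called higher (8.14% of all genes), and *Nr3c1* and *Thrb* lower (16.1%). In mesenchymal-like cells *Esr1* was called higher (10.1% of all genes) and *Pgr* lower (14.0%). These counts hold at most 3 of 6 receptors, and with so few receptors none of them can be set apart from these shares. The median log2 fold of all genes passed was between -0.06 and 0.06 in the other classes, and -0.40 in male and -0.10 in female melanotroph-like cells, and dividing by it altered no call.

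**Figure D2:**
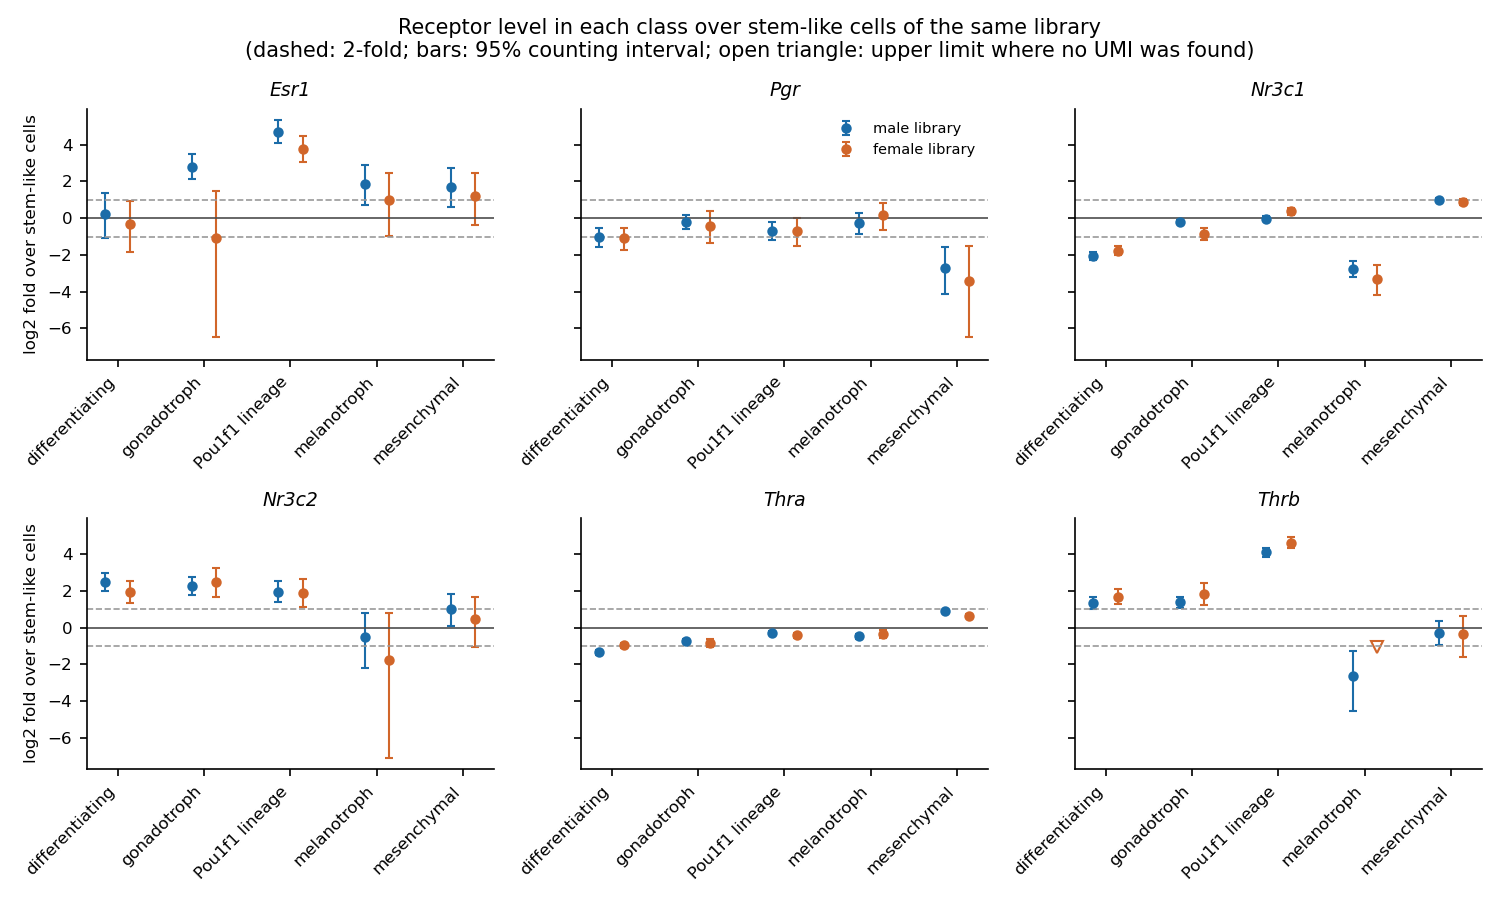
Log2 fold of each receptor over stem-like cells of the same library, for the 6 receptors with at least 50 UMIs in each library (points), with exact 95% intervals (bars) and dashed lines at 2-fold. The open triangle is the upper limit for *Thrb* in female melanotroph-like cells, where no UMI was found, and the largest folds are those of *Esr1* and *Thrb* in Pou1f1-lineage-like cells.

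*Thrb* (ENSMUSG00000021779, mm10 chromosome 14 from 17660261 to 18038090, plus strand) encodes thyroid hormone receptor β, the isotype through which thyroid hormone represses TSH. It was at 90.1 CPM (84.3 to 96.2) in male and 95.3 (85.2 to 106) in female Pou1f1-lineage-like cells. The next class was the gonadotroph-like, at 13.8 (11.9 to 15.9) and 13.9 (9.37 to 19.8), followed by the differentiating-like at 13.3 (11.2 to 15.6) and 12.5 (10.1 to 15.3). These 2 classes did not differ beyond their intervals in either library, and each was apart from the Pou1f1-lineage-like cells. Stem-like cells had 5.30 (4.58 to 6.10) and 3.90 (3.25 to 4.64), and mesenchymal-like cells 4.41 (2.79 to 6.61) and 3.01 (1.30 to 5.93). In melanotroph-like cells 4 male UMIs gave 0.857 (0.234 to 2.19), and no female UMI was found, which allows up to 1.47 CPM at 3 counts, and the call in this class was lost with cells thinned to 5000 UMIs. Relative to stem-like cells of the same library, *Thrb* was 17.0-fold higher (14.5 to 19.9) in male and 24.4-fold higher (19.8 to 30.3) in female Pou1f1-lineage-like cells. The fold was 2.5 (2.0 to 3.12) and 3.20 (2.42 to 4.22) in differentiating-like cells and 2.60 (2.11 to 3.19) and 3.56 (2.31 to 5.34) in gonadotroph-like cells.

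RefSeq lists 2 start sites for *Thrb* that lie far apart, and the 3′ counts do not say which was used. Both windows, from 250 bases before to 50 after the start (GRCm38.p6, plus strand), are shown because *Thrb* had the most UMIs of the receptors called higher in Pou1f1-lineage-like cells. The first is at chr14:17660710-17661009 and the second at chr14:17981394-17981693. Capitals mark matches on either strand of AGGTCA, the hexamer in the elements of oestrogen, thyroid hormone and vitamin D receptors, or of TATNCAT, a motif of POU1F1, and these motifs do not overlap here.
Thrb window 1: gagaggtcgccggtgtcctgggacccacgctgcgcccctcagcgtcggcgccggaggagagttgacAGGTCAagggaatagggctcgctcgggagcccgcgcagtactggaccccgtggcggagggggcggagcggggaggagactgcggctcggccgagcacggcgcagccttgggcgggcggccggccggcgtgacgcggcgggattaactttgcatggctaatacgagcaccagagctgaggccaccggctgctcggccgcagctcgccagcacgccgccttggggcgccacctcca
Thrb window 2: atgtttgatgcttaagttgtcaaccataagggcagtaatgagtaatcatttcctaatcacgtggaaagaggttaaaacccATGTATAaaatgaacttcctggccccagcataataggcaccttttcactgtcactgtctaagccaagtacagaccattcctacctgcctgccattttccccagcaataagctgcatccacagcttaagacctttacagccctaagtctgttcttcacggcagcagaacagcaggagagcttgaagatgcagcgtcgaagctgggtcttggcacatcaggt
The first window holds 1 AGGTCA and no TATNCAT and has 72.7% G and C, and the second holds 1 TATNCAT and no AGGTCA and has 46% G and C. Of 32851 promoter windows of the same 300 bases, 16.3% hold an AGGTCA and 8.84% a TATNCAT. Windows were found for 6 of the 8 receptors, and the windows of *Esr1* and *Vdr*, the other receptors highest in Pou1f1-lineage-like cells, hold neither motif. A match is a description of the sequence only.

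Within the Pou1f1-lineage-like cells, *Thrb* was highest where *Prl*, the prolactin gene, was found. The 51 male cells with at least 10 *Prl* UMIs had 188 CPM of *Thrb* (159 to 220) and the 5 female cells 288 (178 to 440). The 61 male and 29 female cells with at least 50 UMIs of *Gh*, the growth hormone gene, had 48.4 (37.8 to 61.1) and 65.7 (44.9 to 92.7). Cells with little of both hormones (536 male and 216 female) lay between, at 86.6 (80.1 to 93.5) and 94.1 (83.0 to 106). Relative to these, the *Prl* cells were 2.17-fold higher (1.81 to 2.59) in the male and 3.06-fold (1.86 to 4.77) in the female library. The ratio of the *Gh* cells was 0.559 (0.431 to 0.715) and 0.698 (0.468 to 1.01), so that the female interval reaches no difference. *Gh* itself adds to the total UMIs by which levels are divided, which lowers the levels of other genes in these cells. The whole class held 231494 male and 138713 female *Gh* UMIs, and the *Gh* cells 1466333 and 487330 UMIs of all genes. The part of this in the ratios of the *Gh* cells was not tested. The cells that met both the *Cga* and the *Pou1f1* rule, 131 male and 24 female, also had *Thrb*, at 90.2 (79.2 to 102) and 96.5 (70.7 to 129) CPM. *Tshb*, which encodes the β subunit of TSH, was at 584 and 8044 CPM in these cells and at 13.3 and 27.7 in the Pou1f1-lineage-like class. *Prl* was at 1844 and 0 CPM in them, against 976 and 158 in that class. *Gh* was at 494 and 957, against 23234 and 40407. Their median depth was 17667 and 18671 UMIs, against 13058 and 12301. Of them, 8.40% and 8.33% were among the cells with the highest Scrublet doublet scores, against 12.7% and 7.39% of that class. Among stem-like cells, those with at least 2 UMIs of the proliferation genes *Mki67* and *Top2a* had less *Thrb* than those with none, at ratios of 0.472 (0.326 to 0.672) and 0.445 (0.245 to 0.758). Differentiating-like cells with a *Shh* UMI had 22.3 (14.5 to 33.0) and 21.9 (11.7 to 37.5) CPM, against 11.3 (8.51 to 14.6) and 14.6 (10.7 to 19.5) in those with at least 2 *Dll1* UMIs. That ratio was 1.98 (1.19 to 3.23) in the male library and 1.5 (0.744 to 2.83) in the female library, where the interval holds 1. A cell that met both rules was counted in both groups, whereas these intervals assume separate cells.

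*Thra* (ENSMUSG00000058756, chromosome 11 from 98740638 to 98769006, plus strand), the widely expressed thyroid hormone receptor, had another order of classes. It was highest in mesenchymal-like cells, at 263 CPM (249 to 277) in the male and 221 (203 to 240) in the female library. Stem-like cells followed with 143 (139 to 147) and 142 (138 to 146). Pou1f1-lineage-like cells had 119 (112 to 125) and 106 (95.1 to 117) and melanotroph-like cells 104 (94.9 to 114) and 112 (97.9 to 127), and these classes overlapped in both libraries. Gonadotroph-like cells had 87.2 (82.3 to 92.2) and 79.2 (67.8 to 92.0). The lowest level was in differentiating-like cells, at 56.4 (52.1 to 61.0) and 72.5 (66.5 to 78.8). Differentiating-like cells therefore had 0.394 (0.362 to 0.428) of the stem-like level in the male and 0.510 (0.466 to 0.557) in the female library, and the female value kept *Thra* from being called. It was called lower in that class with doubled marker thresholds or without the cells of highest Scrublet score, and was otherwise not called in any class at 2-fold. In the differentiating-like class *Thra* and *Thrb* thus moved in opposite directions from stem-like cells in both libraries. Among gonadotroph-like cells, *Thra* was higher in those with a UMI of *Gnrhr*, *Lhb*, *Fshb* or *Nr5a1* than in those with *Cga* alone, by 1.35-fold (1.20 to 1.52) and 1.46-fold (1.05 to 2.0). The gene-level counts do not separate the *Thra* transcripts, which encode proteins with and without hormone binding. An exon of *Thra* overlaps *Nr1d1* on the opposite strand by 1075 bases, and the sources used here do not state whether strand was used in counting, so reads of the paired genes there cannot be told apart. *Thrb* overlaps an antisense gene, *Gm48321*, over 90772 bases, with the same limit.

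*Esr1* (ENSMUSG00000019768, chromosome 10 from 4611593 to 5005614, plus strand), oestrogen receptor α, was near the limit of these libraries in SCs and clearly present in Pou1f1-lineage-like cells. Its level there was 18.2 CPM (15.6 to 21.0) from 181 male UMIs and 13.4 (9.81 to 17.9) from 46 female UMIs. In stem-like cells 26 and 32 UMIs gave 0.707 (0.462 to 1.04) and 0.990 (0.677 to 1.40), and in differentiating-like cells 9 and 6 UMIs gave 0.817 (0.374 to 1.55) and 0.796 (0.292 to 1.73). Stem-like and differentiating-like cells could not be separated by these counts. The Pou1f1-lineage-like level was 25.7-fold (17.0 to 40.4) and 13.5-fold (8.44 to 22.0) that of stem-like cells. Melanotroph-like cells had 2.57 (1.33 to 4.49) and 1.96 (0.535 to 5.03), from 12 and 4 UMIs. Mesenchymal-like cells had 2.30 (1.19 to 4.02) and 2.26 (0.829 to 4.92), from 12 and 6 UMIs, which gave folds over stem-like cells of 3.25 (1.5 to 6.68) and 2.28 (0.780 to 5.53). The call in mesenchymal-like cells rests on these few UMIs, its female interval holds 1, and it was lost when cells were weighted equally or thinned to a common depth. *Esr1* UMIs were spread over cells: 140 of 659 male and 34 of 257 female Pou1f1-lineage-like cells had at least 1, with no more than 5 in any cell. After thinning to 5000 UMIs, 9.80% of the male cells with a *Thrb* UMI had an *Esr1* UMI (6.09 to 14.7) against 8.33% (5.77 to 11.6) of those without. In the female library these shares were 9.30% (4.10 to 17.5) and 4.22% (1.71 to 8.50), and the intervals overlapped in both libraries.

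Within the Pou1f1 lineage, *Esr1* followed the same order as *Thrb*. The cells with *Prl* had 30.7 CPM (19.8 to 45.3) from 25 male UMIs and 41.1 (8.48 to 120) from 3 female UMIs. The cells with *Gh* had 5.46 (2.36 to 10.8) from 8 male UMIs and 2.05 (0.0520 to 11.4) from 1 female UMI, and those with little of both hormones 18.7 (15.8 to 22.1) and 12.3 (8.52 to 17.2). The ratio of *Gh* cells to the latter was 0.291 (0.123 to 0.590) and 0.167 (0.00410 to 0.994). As for *Thrb*, the *Gh* UMIs in the totals lower these ratios, and their part was not tested. The ratio of *Prl* cells was 1.64 (1.03 to 2.52) in the male library, and 3.34 (0.657 to 10.6) in the female library, where only 5 cells had *Prl*.

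**Figure D3:**
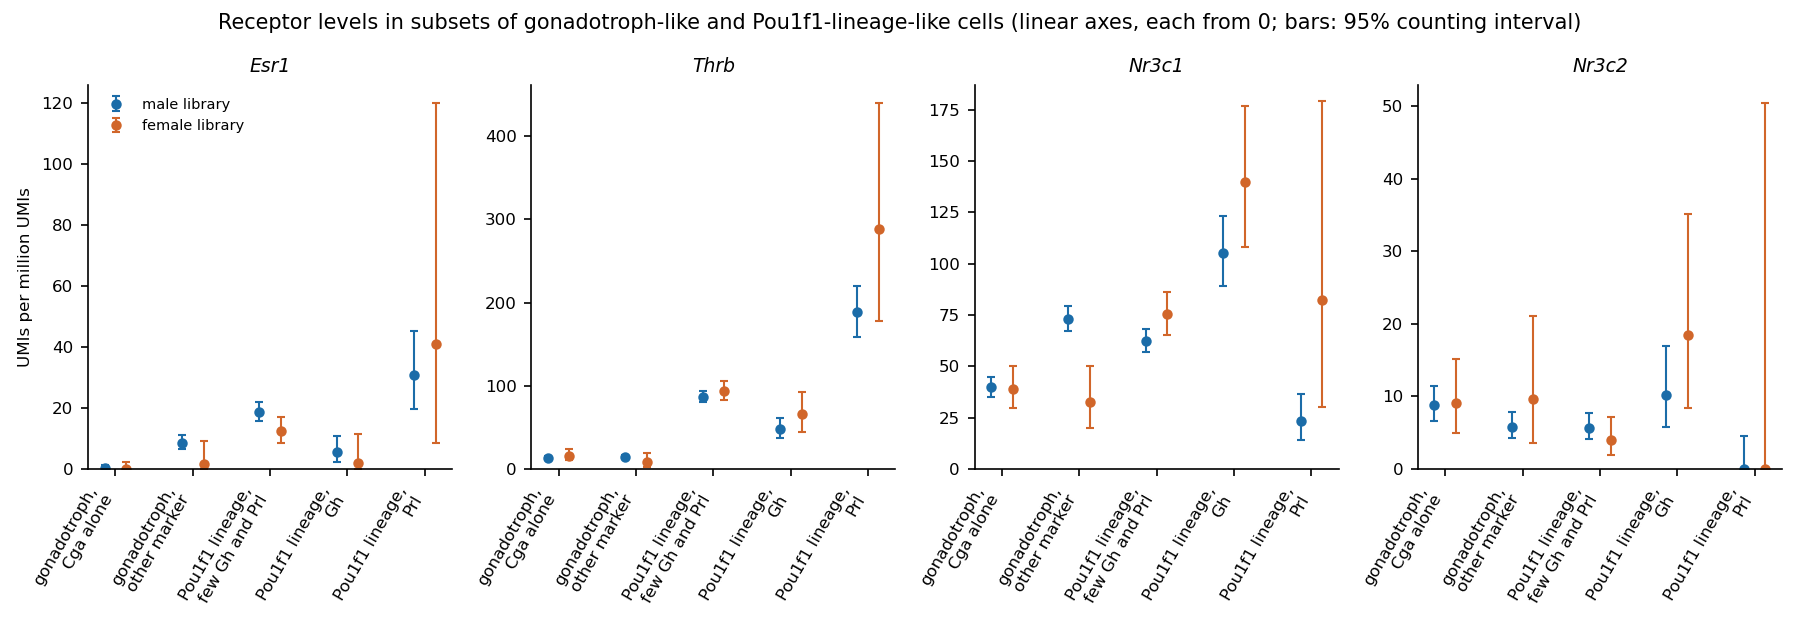
Levels of *Esr1*, *Thrb*, *Nr3c1* and *Nr3c2* (CPM, linear axes from 0) in subsets of gonadotroph-like cells (*Cga* alone, or with a UMI of *Gnrhr*, *Lhb*, *Fshb* or *Nr5a1*) and of Pou1f1-lineage-like cells (little *Gh* and *Prl*, *Gh*, or *Prl*), with exact 95% Poisson intervals, male in blue and female in orange. *Esr1* and *Thrb* were lower in the *Gh* cells than in the *Prl* cells, *Nr3c1* was the reverse in the male library, and the female *Prl* points rest on 5 cells.

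In gonadotroph-like cells *Esr1* differed past 2-fold between the libraries, a call that was lost with cells thinned to 5000 UMIs, where 1.90% of 842 male (1.09 to 3.07) and 0 of 140 female cells (0 to 2.60) had an *Esr1* UMI and the intervals overlapped. There were 68 UMIs in 39 of 910 male cells, 4.95 CPM (3.85 to 6.28), and 1 UMI in 142 female cells, 0.463 (0.0117 to 2.58). The male to female ratio was 10.7 with an interval from 1.86 to 428, and 3.13% of all genes were called male-higher and 1.51% female-higher in this class by the same fold. Of the 68 male UMIs, 65 were in the 463 cells with a UMI of another gonadotroph gene (8.63 CPM, 6.66 to 11) and 3 in the 447 cells with *Cga* alone (0.484, 0.0997 to 1.41), a ratio of 17.8 (5.84 to 88.8). The female library had only 40 cells of the former kind, which held its 1 UMI (1.62, 0.0410 to 9.02). Within these cells the male to female ratio was 5.33 (0.924 to 214) and its interval held 1. Leaving out the cells with a *Pou1f1* UMI kept 66 male UMIs and 1 female UMI, a ratio of 10.3 (1.79 to 415). In stem-like cells none of the receptors passed 2-fold between the libraries, against 1.30% of all genes male-higher and 0.918% female-higher. *Thrb* was 1.36-fold (1.08 to 1.72) higher in male than in female stem-like cells. In the remaining 4 classes none passed 2-fold either, against shares of all genes, male-higher and female-higher, of 2.04% and 1.94% (differentiating-like), 2.77% and 1.35% (Pou1f1-lineage-like), 2.74% and 4.56% (melanotroph-like) and 4.19% and 1.09% (mesenchymal-like).

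*Esr2* (ENSMUSG00000021055, chromosome 12 from 76120419 to 76177259, minus strand), oestrogen receptor β, was at the edge of detection. The 7 male and 4 female UMIs were spread over stem-like cells (2 and 2), melanotroph-like cells (2 and 1) and cells without 1 class, and the other 4 classes had none in either library. No UMI in the 659 male Pou1f1-lineage-like cells allows up to 0.301 CPM, far below the *Esr1* level there, and none in the 910 male gonadotroph-like cells allows up to 0.218.

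*Pgr* (ENSMUSG00000031870, chromosome 9 from 8899833 to 8968611, plus strand), the progesterone receptor and a known target of oestrogen receptor α, was not highest where *Esr1* was. Stem-like cells had 7.42 CPM (6.57 to 8.36) and 7.95 (7.01 to 8.98). Gonadotroph-like cells had 6.48 (5.20 to 7.98) and 6.02 (3.21 to 10.3), and melanotroph-like cells 6.21 (4.16 to 8.92) and 8.84 (5.24 to 14.0). These classes did not differ beyond their intervals. Pou1f1-lineage-like cells had 4.62 (3.38 to 6.16) and 4.95 (2.88 to 7.93), which is 0.622 (0.445 to 0.852) and 0.623 (0.357 to 1.02) of the stem-like level. In differentiating-like cells *Pgr* was 2.04-fold lower (1.46 to 2.92) in the male and 2.14-fold lower (1.45 to 3.28) in the female library than in stem-like cells, at 3.63 and 3.72 CPM, and this call was lost with doubled marker thresholds. Mesenchymal-like cells had 6 male UMIs, 1.15 (0.422 to 2.5), and 2 female UMIs, 0.753 (0.0912 to 2.72). The stem-like level did not differ between *Ednrb* cells and *Aldh1a2* cells, with ratios of 0.960 (0.707 to 1.30) and 0.905 (0.653 to 1.26), nor between cells with and without *Mki67* or *Top2a* beyond the intervals, with ratios of 0.776 (0.595 to 1.01) and 1.09 (0.810 to 1.45).

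*Nr3c1* (ENSMUSG00000024431, chromosome 18 from 39410545 to 39519421, minus strand), the glucocorticoid receptor, ranged widely over the classes. Mesenchymal-like cells had 132 CPM (123 to 143) in the male and 124 (111 to 138) in the female library, 1.99-fold (1.83 to 2.17) and 1.86-fold (1.65 to 2.09) the stem-like level and so just inside 2-fold. Stem-like cells had 66.5 (63.9 to 69.2) and 66.7 (64.0 to 69.6), with a male to female ratio of 0.997 (0.940 to 1.06). Pou1f1-lineage-like cells had 65.3 (60.4 to 70.6) and 86.8 (77.2 to 97.2). The level was 4.12-fold lower (3.53 to 4.82) in male and 3.37-fold lower (2.86 to 4.01) in female differentiating-like cells than in stem-like cells, at 16.2 (13.9 to 18.7) and 19.8 (16.7 to 23.2). Melanotroph-like cells were lowest, at 9.86 (7.22 to 13.1) and 6.87 (3.76 to 11.5), 6.75-fold (5.05 to 9.25) and 9.71-fold (5.77 to 17.8) under the stem-like level. Both low classes were thus below gonadotroph-like cells, which had 58.0 (54.0 to 62.1) and 37.0 (29.4 to 46.1).

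The gonadotroph-like cells were not uniform in *Nr3c1*. In the male library, those with another gonadotroph gene had 73.0 CPM (67.1 to 79.4) and those with *Cga* alone 39.7 (34.9 to 44.9), a ratio of 1.84 (1.58 to 2.15). In the female library these values were 32.4 (19.8 to 50) from 20 UMIs and 38.9 (29.7 to 50.1), a ratio of 0.832 (0.475 to 1.40). Over the whole class the male to female ratio was 1.56 (1.24 to 1.99). It was 1.02 (0.766 to 1.38) among cells with *Cga* alone and 2.26 (1.45 to 3.72) among those with another gonadotroph gene, and the share of the latter cells differed between the libraries (463 of 910 and 40 of 142). Within the Pou1f1 lineage, *Gh* cells had more *Nr3c1* than those with little hormone, by 1.68-fold (1.39 to 2.02) and 1.85-fold (1.39 to 2.45), at 105 (89.1 to 123) and 140 (108 to 177). The male *Prl* cells had 23.3 (14.0 to 36.4), a ratio of 0.373 (0.223 to 0.590), and 6 UMIs in the female *Prl* cells gave 82.2 (30.2 to 179). In stem-like cells *Nr3c1* was modestly higher in *Ednrb* than in *Aldh1a2* cells, by 1.22-fold (1.10 to 1.35) and 1.23-fold (1.10 to 1.38), and higher with than without *Mki67* or *Top2a*, by 1.16-fold (1.07 to 1.26) and 1.22-fold (1.10 to 1.34).

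*Nr3c2* (ENSMUSG00000031618, chromosome 8 from 76899442 to 77245012, plus strand) encodes the mineralocorticoid receptor, which binds aldosterone and also corticosterone. It was low in stem-like cells and higher in differentiating-like, gonadotroph-like and Pou1f1-lineage-like cells. Stem-like cells had 1.52 CPM (1.15 to 1.98) from 56 male UMIs and 1.64 (1.23 to 2.14) from 53 female UMIs. Differentiating-like cells had 8.45 (6.82 to 10.3) and 6.24 (4.58 to 8.30), gonadotroph-like cells 7.21 (5.86 to 8.78) and 9.26 (5.66 to 14.3), and Pou1f1-lineage-like cells 5.92 (4.51 to 7.64) and 6.12 (3.79 to 9.35). Neighbours among these 3 classes overlapped in both libraries. Their folds over stem-like cells were 5.55 (3.94 to 7.87) and 3.81 (2.51 to 5.75), 4.73 (3.38 to 6.69) and 5.65 (3.20 to 9.61), and 3.89 (2.65 to 5.71) and 3.73 (2.14 to 6.29). Mesenchymal-like cells had 3.07 (1.75 to 4.98) and 2.26 (0.829 to 4.92), and melanotroph-like cells 5 male UMIs and 1 female UMI. The calls in gonadotroph-like and Pou1f1-lineage-like cells were lost with cells thinned to 5000 UMIs. In differentiating-like cells *Nr3c2* was therefore above and *Nr3c1* below the stem-like level. Within the Pou1f1 lineage, the *Gh* cells had 10.2 (5.73 to 16.9) and 18.5 (8.44 to 35.1), and no *Nr3c2* UMI was found in the 51 male and 5 female *Prl* cells. The *Gh* cells were above those with little hormone by 1.79-fold (0.924 to 3.29) and 4.64-fold (1.70 to 12.3), and the male interval holds 1. An exon of *Nr3c2* overlaps a noncoding gene, *Gm10649*, on the opposite strand (1180 bases shared).

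*Vdr* (ENSMUSG00000022479, chromosome 15 from 97854425 to 97910630, minus strand), the vitamin D receptor, was rare and did not reach 50 UMIs in the female library, so it was not called in any class, although without that minimum it would be in Pou1f1-lineage-like cells. Of its 51 male UMIs, 26 were in Pou1f1-lineage-like cells, 2.61 CPM (1.70 to 3.82), and of its 26 female UMIs, 12 were, 3.50 (1.81 to 6.11). The level was 16.0-fold (6.44 to 47.5) and 22.6-fold (7.41 to 81.9) that of stem-like cells, where 6 and 5 UMIs were found. Cells that met both the *Cga* and *Pou1f1* rules held a further 13 and 4 UMIs, 4.85 (2.58 to 8.29) and 8.39 (2.29 to 21.5) CPM. No UMI was found in gonadotroph-like or melanotroph-like cells of either library, which allows up to 0.218 and 1.39 CPM in male and female gonadotroph-like cells and 0.643 and 1.47 in melanotroph-like cells. The UMIs were in 25 male and 12 female Pou1f1-lineage-like cells.

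To compare cells at 1 depth, each cell with at least 5000 UMIs was thinned to that number and shallower cells were left out. In the order male and female, 325 and 77 stem-like, 15 and 2 differentiating-like, 68 and 2 gonadotroph-like, 71 and 5 Pou1f1-lineage-like, 78 and 0 melanotroph-like and 143 and 29 mesenchymal-like cells were left out, so that the male library lost more cells in each class. Among Pou1f1-lineage-like cells 34.7% of 588 male (30.8 to 38.7) and 34.1% of 252 female cells (28.3 to 40.3) had a *Thrb* UMI. In melanotroph-like cells, the class with the lowest share, it was 0.549% of 182 male cells (0.0139 to 3.02) and 0 of 116 female cells, which allows a share of up to 2.59%. Unthinned, the shares were 58.7% and 58.8% against 1.54% and 0, at median depths of 13058 and 12301 UMIs in Pou1f1-lineage-like and 16441 and 15726 UMIs in melanotroph-like cells. An *Esr1* UMI was in 8.84% (6.68 to 11.4) and 5.95% (3.37 to 9.63) of Pou1f1-lineage-like cells, against 0.235% (0.0861 to 0.510) and 0.630% (0.380 to 0.982) of stem-like cells (unthinned, 21.2% and 13.2% against 0.902% and 1.03%). The stem-like shares were within the intervals of those in melanotroph-like cells (1.10%, 0.133 to 3.91, and 0 of 116) and were not read as expression. *Thra* was found in 72.8% (68.7 to 76.7) and 68.3% (62.5 to 73.7) of mesenchymal-like, 51.5% (49.5 to 53.4) and 50.5% (48.7 to 52.3) of stem-like and 23.2% (20.1 to 26.5) and 30.0% (26.2 to 34.1) of differentiating-like cells. *Nr3c1* was found in 48.5% (44.0 to 53.0) and 44.5% (38.6 to 50.5) of mesenchymal-like cells, 28.2% (26.5 to 30.0) and 26.6% (25.0 to 28.2) of stem-like cells, and 5.49% (2.67 to 9.87) and 5.17% (1.92 to 10.9) of melanotroph-like cells.

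**Figure D4:**
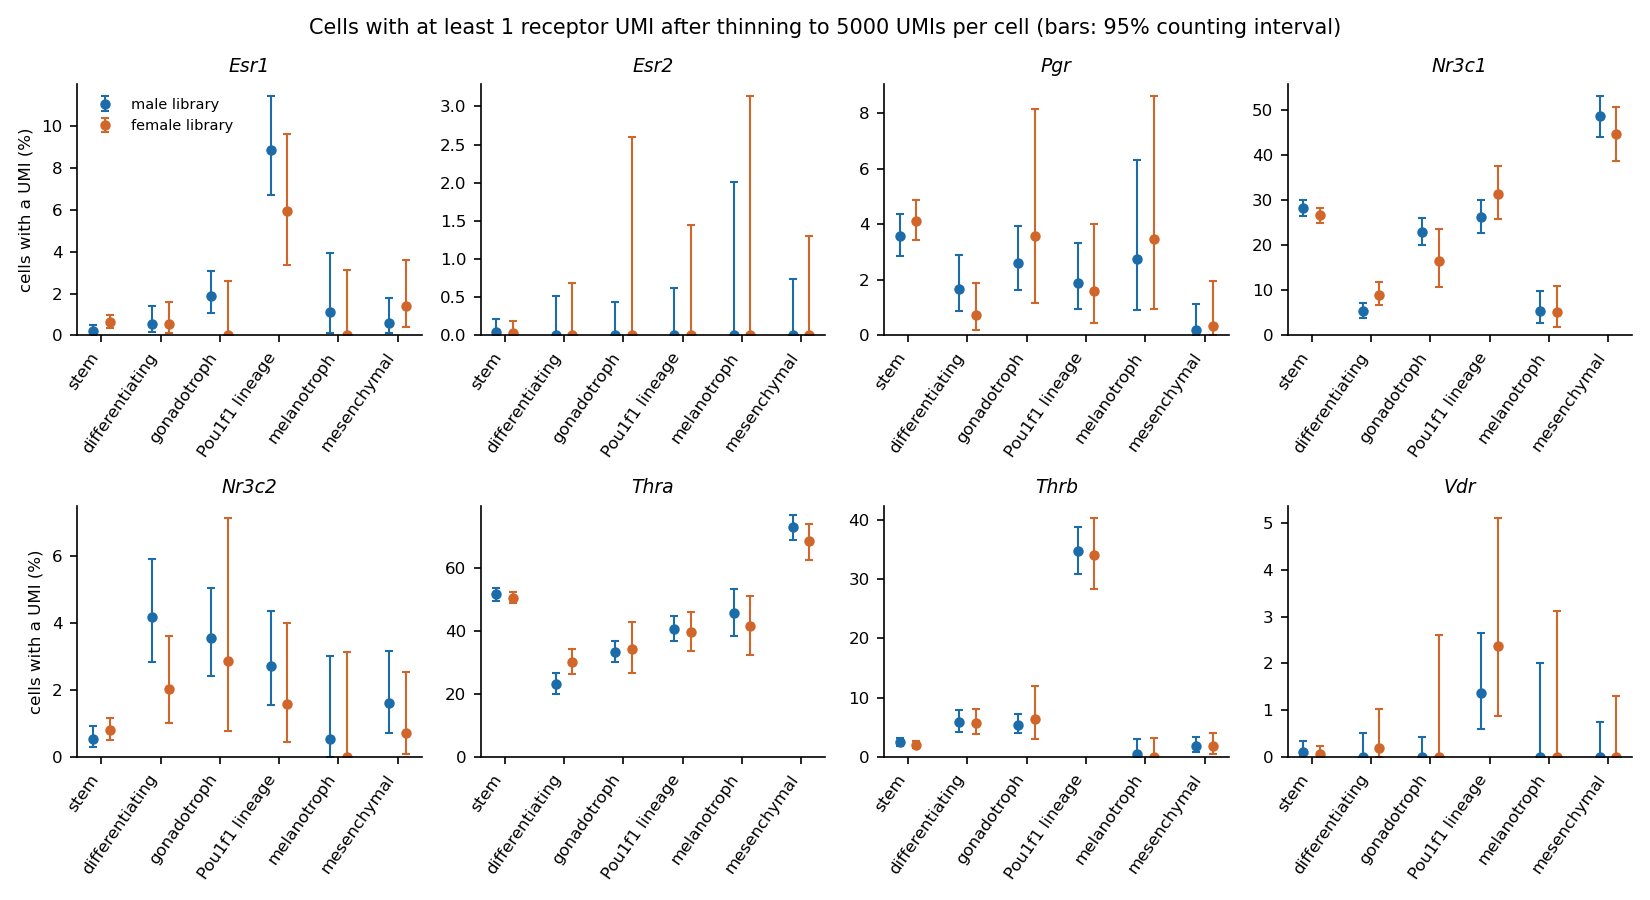
Share of cells with at least 1 UMI of each receptor after thinning to 5000 UMIs, with shallower cells left out (percent, linear axes from 0), by class, with exact 95% Clopper-Pearson intervals, male in blue and female in orange. *Thrb* was found in 34.7% and 34.1% of Pou1f1-lineage-like cells and in at most 6.43% of cells of any other class.

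Most cells of the mesenchymal-like and Pou1f1-lineage-like classes had a UMI of at least 1 of the 8 receptors at this depth. The share was 86.0% (82.6 to 88.9) and 84.7% (79.9 to 88.7) in mesenchymal-like, 73.6% (69.9 to 77.2) and 74.2% (68.3 to 79.5) in Pou1f1-lineage-like, 66.8% (64.9 to 68.6) and 66.3% (64.6 to 68.0) in stem-like and 34.5% (31.0 to 38.1) and 43.0% (38.7 to 47.3) in differentiating-like cells. At least 2 receptors were found in 38.5% and 31.0% of mesenchymal-like, 33.0% and 33.3% of Pou1f1-lineage-like, 18.7% and 17.3% of stem-like and 6.01% and 5.0% of differentiating-like cells. The lowest share with any receptor was in male differentiating-like cells, where *Thra* and *Nr3c1* were both low.

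The retinoid X receptors, dimer partners of some of these receptors, were followed in the same classes. *Rxrg*, a retinoid X receptor with which thyroid hormone and vitamin D receptors pair, was at 114 and 121 CPM in male and female Pou1f1-lineage-like cells and at 1.33 and 0.804 in stem-like cells, and was called higher in that class. *Rxra* was highest in mesenchymal-like cells, at 15.1 and 15.4, and called lower in gonadotroph-like cells, at 3.42 and 4.17 against 7.89 and 8.88 in stem-like cells. *Rxrb* had 14.6 to 30.9 in all classes and was not called. *Rxrg* was called lower in differentiating-like cells on few UMIs, and this call was lost under all 3 other scalings.

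Chaperones and coregulators were compared over the same classes. All 7 chaperone genes passed the filter and none was called in any class. By class, 5.77% to 10.1% of all genes were called higher and 8.96% to 16.1% lower. With 7 genes in each list, the counts cannot be set apart from these shares. *Hsp90ab1*, *Hsp90aa1* and *Fkbp4*, which hold steroid receptors ready for hormone, had higher levels in differentiating-like than in mesenchymal-like cells, with *Hsp90ab1* at 4026 and 4115 CPM there and 2107 and 1991 in mesenchymal-like cells. *Fkbp5*, a chaperone that glucocorticoids induce, was lowest in stem-like cells, at 6.99 and 6.06. It had 16.6 and 10.6 in differentiating-like cells, where it was called higher with cells thinned to 5000 UMIs. It had 11.1 and 15.7 in Pou1f1-lineage-like and 10.4 and 11.6 in gonadotroph-like cells, so differentiating-like cells were not the highest in the female library. Female melanotroph-like cells, at 6.38, were near the stem-like level. Of 7 coregulators, *Ncoa1*, a coactivator of these receptors, was called higher in differentiating-like, gonadotroph-like and Pou1f1-lineage-like cells, at 82.7 and 78.4, 108 and 104, and 76.6 and 88.0, against 35.3 and 34.5 in stem-like cells. *Ncoa3* was called higher in mesenchymal-like cells, at 56.9 and 50.1 against 21.1 and 17.8. Not called was *Nrip1*, which had 132 and 131 in differentiating-like and 47.8 and 43.7 in melanotroph-like cells.

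Genes that activate or inactivate the hormones were in part highest in stem-like cells. Of 13 listed, 5 passed the filter, and *Hsd11b1* and *Srd5a1* were called lower than in stem-like cells in each of the other 5 classes. By class, 8.96% to 16.1% of all genes were called lower and 5.77% to 10.1% higher. *Hsd11b1*, whose enzyme regenerates active glucocorticoid, was at 137 and 142 CPM in stem-like cells, 38.0 and 43.5 in differentiating-like, 18.6 and 14.4 in gonadotroph-like and 5.37 and 1.88 in mesenchymal-like cells. *Srd5a1*, a steroid 5α-reductase, was at 20 and 19.7 in stem-like cells and between 2.95 and 9.72 in the others. *Dio2*, which converts thyroxine to the active hormone, was the reverse, at 0.462 and 0.371 in stem-like cells, 12.6 and 23.3 in Pou1f1-lineage-like and 15.5 and 26.0 in mesenchymal-like cells. It was called higher in each class except gonadotroph-like cells, and the call in melanotroph-like cells was lost with thinned cells.

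**Figure D5:**
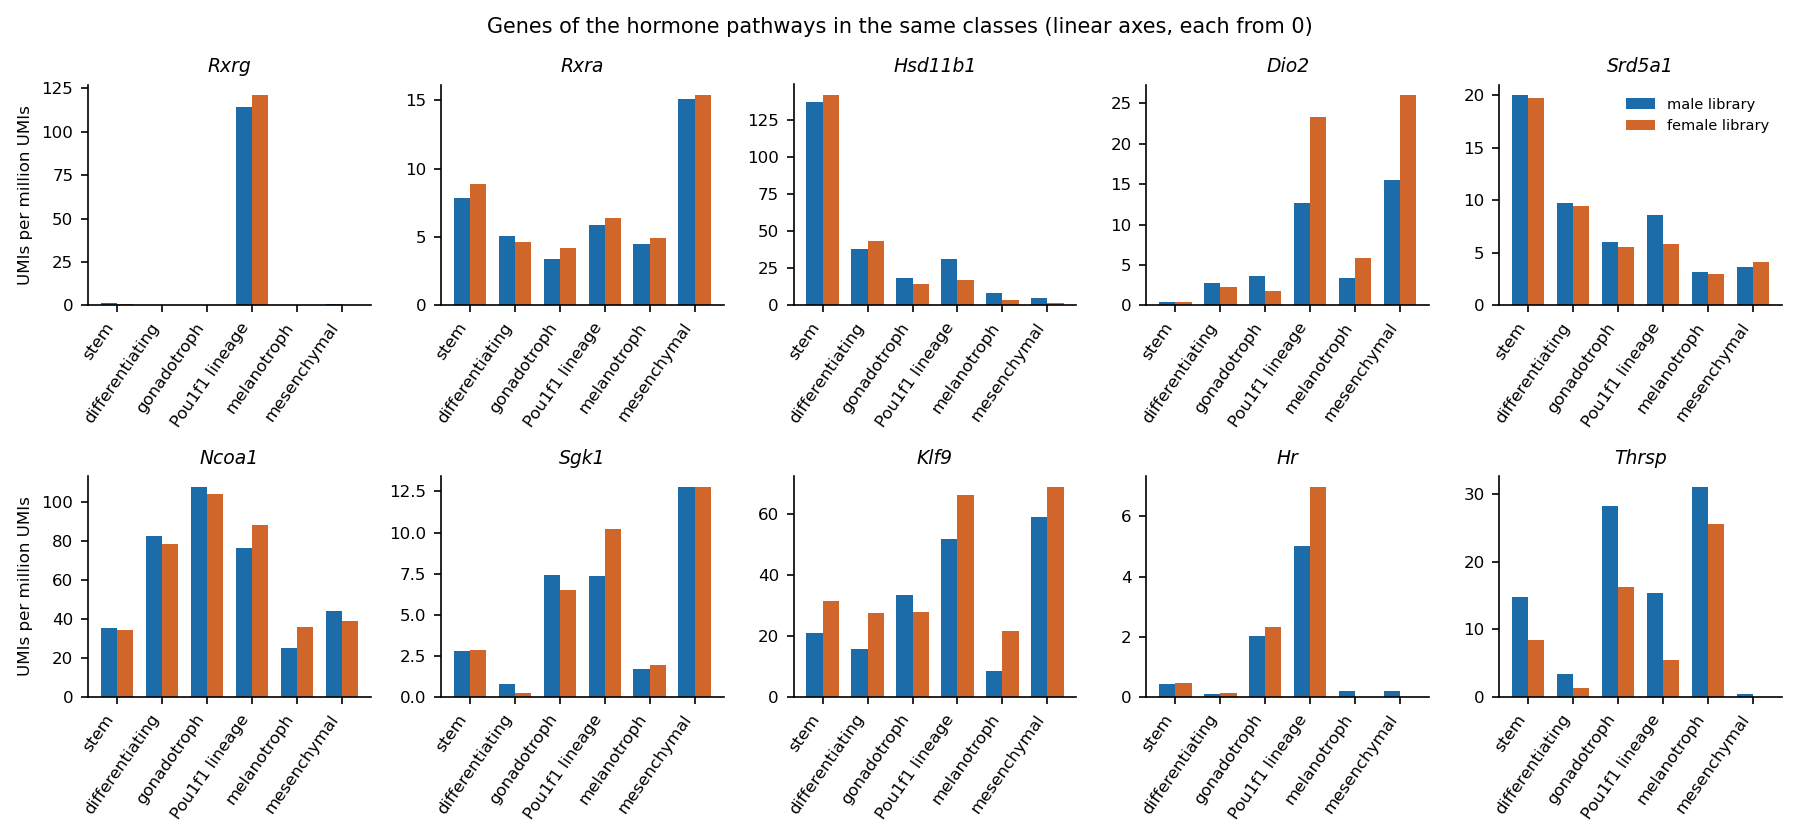
Levels of genes of the receptor pathways (CPM, linear axes from 0) in the 6 classes, male in blue and female in orange, without intervals. *Hsd11b1* and *Srd5a1* were highest in stem-like cells and *Rxrg* and *Hr* in Pou1f1-lineage-like cells of both libraries.

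Genes known to respond to these hormones were taken as lists, and their levels do not measure receptor activity. Of 8 glucocorticoid-responsive genes, 4 were called higher in Pou1f1-lineage-like cells (*Sgk1*, *Zbtb16*, *Klf9* and *Cdkn1c*, a list member singled out after its values were seen), against 8.45% of all genes, with a list median of 0.89 and 1.23 on the log2 scale. Of the 8 genes, 1 was called higher in differentiating-like cells (5.77% of all genes), 2 in gonadotroph-like (9.26%), 3 in mesenchymal-like (10.1%) and 0 in melanotroph-like cells (8.14%), and the calls of *Sgk1* in gonadotroph-like and *Klf9* in mesenchymal-like cells were each lost under 1 other scaling. *Sgk1*, a kinase induced by both corticosteroid receptors, was at 0.817 and 0.265 CPM in differentiating-like cells, 2.80 and 2.85 in stem-like and 12.8 and 12.8 in mesenchymal-like cells. *Zbtb16* was at 3.81 and 6.12 in Pou1f1-lineage-like cells and at most 0.982 elsewhere. *Dusp1* was highest in stem-like cells, at 429 and 629, and was called lower in gonadotroph-like, melanotroph-like and mesenchymal-like cells. Of 4 genes responsive to thyroid hormone, 3 passed, and *Hr* and *Klf9* were called higher in Pou1f1-lineage-like cells, against 8.45% of all genes. *Hr*, a corepressor of thyroid hormone receptors, was at 5.02 and 6.99 there and 0.435 and 0.464 in stem-like cells, and *Klf9* at 51.6 and 66.1 against 20.8 and 31.3. *Thrsp*, a lipogenic gene, was highest in melanotroph-like cells, at 31.1 and 25.5. It was called higher there, and this call was lost with cells weighted equally. Those cells had almost no *Thrb*, but had *Thra* at 104 and 112 CPM.

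Of 5 oestrogen-responsive genes, *Pgr* among them, none was called higher in Pou1f1-lineage-like cells, where *Esr1* was highest, against 8.45% of all genes. In that class *Cxcl12* was called lower, against 8.96% of all genes. With 5 genes, these counts cannot be set apart from these shares. *Cxcl12*, a chemokine, and *Igf1*, a growth factor, were highest in mesenchymal-like cells, at 458 and 385 and at 62.7 and 65.5 CPM. *Gal*, the galanin gene, was at 379 and 148 in melanotroph-like cells and at most 1.67 in any other class. Of 3 genes responsive to vitamin D, *Cyp24a1*, its usual target, had no UMI in either library, *Spp1* was highest in mesenchymal-like cells, at 66.1 and 35.4, and *Rgs4* in gonadotroph-like cells, at 21.9 and 12. Of the 3, 2 passed the filter. *Spp1* was also called higher in Pou1f1-lineage-like cells, at 3.11 and 4.37 against 0.462 and 1.18 in stem-like cells. *Rgs4* was called higher in gonadotroph-like and melanotroph-like cells, which had no *Vdr* UMI, and both genes in mesenchymal-like cells. Of all genes, 8.45% (Pou1f1-lineage-like), 9.26% (gonadotroph-like), 8.14% (melanotroph-like) and 10.1% (mesenchymal-like) were called higher. The *Rgs4* call in melanotroph-like cells was lost with thinned cells. With 2 genes, these counts cannot be set apart from these shares.

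For the 6 receptors with at least 100 UMIs in each library, the genes with the most similar pattern over the 12 points of class and library were found by Pearson correlation of log2 levels (5 CPM added), leaving out the markers that define the classes. These are the highest of many correlations over points that share libraries, and they are given as a description. For *Thrb* they were *Htatsf1* (r = 0.972), *Eif4e3* (0.966) and *Suds3* (0.963), for *Thra* *Cd63* (0.962), *Stom* (0.962) and *Fbxl7* (0.960), and for *Esr1* *Cacna2d4* (0.952), *Cilp* (0.941) and *Ccer2* (0.940). For *Pgr* they were *Gramd1c* (0.972), *Pigp* (0.962) and *Insig1* (0.961), and for *Nr3c1* *Fuca1* (0.982), *Rell1* (0.974) and *Acaa1a* (0.963). For *Nr3c2* they were *Ncoa1* (0.957), *Psme4* (0.943) and *Ampd3* (0.943), and *Ncoa1* is also the coregulator called higher in the same 3 classes as *Nr3c2*.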

How the data were processed

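Reads were aligned by the authors to mm10 plus an eGFP sequence (Cell Ranger 3.0.2, STAR 2.5.1b), and raw UMI counts per gene and cell barcode were deposited. The submitters' processing notes also name R 3.6.0, Seurat 3 and Seurat 4. The receptors and gene lists were chosen with earlier results of these data known. Barcodes with under 50 genes or a mitochondrial share over 3 SD above the library mean (20.4% male, 26.1% female) were removed, 159 male and 85 female.

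Classes were set on raw UMIs: at least 2 *Sox2* and 1 *Sox9*, *Aldh1a2* or *Ednrb*, with no *Lef1* or *Shh* and under 2 *Dll1* (stem-like), 2 *Lef1* and 1 *Gadd45g*, *Dll1* or *Shh* (differentiating-like), 20 *Cga* (gonadotroph-like), 2 *Pou1f1* (Pou1f1-lineage-like), 20 *Pomc* and 1 *Pax7* or 2 *Pcsk2* (melanotroph-like), and 2 of each of 3 of the genes *Dcn*, *Col1a1*, *Col1a2* and *Col3a1* (mesenchymal-like). Cells meeting more than 1 of the last 4 rules, or the mesenchymal and a stem or differentiating rule, were left out of the classes. Little *Gh* and *Prl* means under 20 and 3 UMIs. *Ednrb* cells have at least 2 UMIs of it, and *Aldh1a2* cells at least 5 and no *Ednrb*.

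For calls, both levels were raised to that of 3 counts in the smaller total. All 8 receptors are named in every class, up to 4 genes per list by the largest fold between classes, and 3 similar genes per receptor, and some genes of the lists are not reported here. Doublets were kept. As an alternative, 867 male and 261 female cells were left out by rank of Scrublet score (scanpy 1.11.5, 0.8% per 1000 cells). The other alternatives were no cell filter, at least 1000 genes per cell, doubled marker thresholds, equal weights for cells, thinning, another fold threshold and no gene filter. Thinning drew cells down without replacement. Positions are from GENCODE vM21. SciPy 1.17.1 gave intervals, and the steps were tested on simulated counts.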

Additional observations from a re-analysis of the deposited data

Results flagged for a closer look

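In 4 cases the fold of a receptor over stem-like cells pointed in opposite directions in the 2 libraries. With 1 library per sex the difference was not tested. For *Esr1* in gonadotroph-like cells the fold was 7.0 (4.40 to 11.5) in males and 0.468 (0.0115 to 2.80) in females, the latter from 1 UMI. The gonadotroph-like cells with a UMI of another gonadotroph gene, which held 65 of the 68 male *Esr1* UMIs, numbered 463 male and 40 female cells, and their part in this difference was not tested beyond the ratio within these cells, 5.33 (0.924 to 214). For *Nr3c1* in Pou1f1-lineage-like cells the fold was 0.982 (0.899 to 1.07) and 1.30 (1.15 to 1.47). For *Pgr* in melanotroph-like cells it was 0.837 (0.550 to 1.23) and 1.11 (0.649 to 1.79), and for *Esr1* in differentiating-like cells 1.16 (0.477 to 2.55) and 0.805 (0.275 to 1.95), and in these last 2 cases all intervals hold 1.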

How the results depend on the processing

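No called fold changed sign under any alternative run. The numbers of receptors highest in the same class in both libraries, 6 by level and 7 by share of cells, stayed within 1.5 times their value. By level, the highest class of *Esr2*, on at most 2 UMIs per class, moved from melanotroph-like to stem-like with thinned cells. That of *Pgr* differed between the libraries, but was melanotroph-like in both with equal weights and stem-like in both with thinned cells. Of 90 recounts of receptors called against stem-like cells, 83 stayed within 1.5 times the count. With cells thinned to 5000 UMIs before summing, 1 receptor was called higher in gonadotroph-like cells (*Thrb*), 1 lower in melanotroph-like cells (*Nr3c1*) and 0 higher in mesenchymal-like cells. With cells weighted equally, 0 were called higher in mesenchymal-like cells. At 1.5-fold, 1 was called lower in gonadotroph-like cells (*Thra*), 1 lower in Pou1f1-lineage-like cells (*Pgr*) and 3 higher in mesenchymal-like cells (*Esr1*, *Nr3c1* and *Thra*), as a lower threshold must give no fewer. Between the libraries, 1 call (*Esr1* in gonadotroph-like cells) became 2 without the cells with the highest Scrublet scores (with *Nr3c1* in melanotroph-like cells), 3 with cells weighted equally (with *Nr3c1* in melanotroph-like and *Thrb* in mesenchymal-like cells), 2 at 1.5-fold (with *Nr3c1* in gonadotroph-like cells) and 3 with thinned cells. These last 3 were *Esr1* in stem-like cells and *Pgr* and *Nr3c2* in differentiating-like cells, and *Esr1* in gonadotroph-like cells was not among them. Thinning leaves fewer UMIs, and otherwise the cause was not tested. Of the levels under the alternatives, 34 left the interval of the reported value and 542 did not, of the folds 20 and 400, and of the shares of cells 126 and 450, and of the shares that moved 56 did so with cells not thinned and 55 with cells thinned to 2000 UMIs. Division by the median fold was chosen after seeing the data. Depth limits *Esr1* outside Pou1f1-lineage-like cells, and *Vdr* and *Esr2* everywhere. No paired analysis was possible because each sex has 1 library and no test was made.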

Other observations

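The cells without a class also held receptor mRNA. *Nr3c2* was at 5.47 CPM (4.48 to 6.61) in the 4090 male and 4.53 (3.39 to 5.92) in the 1202 female cells of this kind, above the stem-like level of 1.52 and 1.64. *Nr3c1* was at 44.5 (41.6 to 47.5) and 41.2 (37.6 to 45.1) in them, below the stem-like level of 66.5 and 66.7, and *Thrb* at 10.2 (8.86 to 11.7) and 8.45 (6.87 to 10.3), above the 5.30 and 3.90 of stem-like cells. For each of these receptors, and for *Pgr* and *Thra*, the value lay between those of stem-like and differentiating-like cells in both libraries. *Esr1* was not between them, at 1.64 (1.12 to 2.31) and 1.20 (0.654 to 2.01). Stem-like cells had 0.707 and 0.990 and differentiating-like cells 0.817 and 0.796, the latter with overlapping intervals. *Vdr* and *Esr2* had at most 4 UMIs per library in the cells without a class.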
